A study of Mus musculus with 11 samples.

Results

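The genes described here are 57 mouse genes whose symbols begin with *Zfp* and a number, which encode zinc finger proteins, as measured in the ribosome-associated RNA of hippocampal neurons after sleep deprivation (SD) or without it (NSD). The members were found through the study's own ranked list of differential abundance, which is ordered by p. In the 1998 rows of that list at hand, 58 *Zfp* symbols occur. A symbol was kept where exactly 1 row of the deposited count table had its listed log CPM (its average abundance on a log2 scale), which named 57 of the 58. *Zfp462* had 2 rows of equal log CPM and is given no value. The counts cover 63244 UCSC transcripts, and each member is 1 of those transcripts, counted from the reads that fell on it alone.

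This choice carries a bias that affects every value below. A transcript had to differ between SD and NSD to stand high in the list, and the largest p of a member in the fit that named the rows was 0.0963, for *Zfp536*. The other *Zfp* genes of the genome are not named in the table, so the values of those just outside the limit are not known here. The differences between SD and NSD that follow are therefore a description of the members and no evidence that *Zfp* genes respond to sleep loss. The names were checked against position, which the rule did not use: 55 of the 57 members lay on the same chromosome as both neighbouring named rows of the table, and *Zfp516* and *Zfp804b* as 1 of their neighbours.

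The mice were males, 2-3 months old, and all carried the CaMKII-Cre:Ribotag genotype: Cre recombinase under the CaMKIIα promoter turns on a hemagglutinin-tagged copy of the ribosomal protein Rpl22 in the neurons where that promoter is active, so that their ribosomes, and the RNA bound to them, can be pulled out of the tissue. One group was kept awake for 5 h from lights-on by gentle handling (6 libraries, SD replicates 1, 2, 3, 4, 6 and D), and the other was left undisturbed and killed at the same time (5 libraries, NSD replicates 2, 3, 4, 5 and B). Each library was made from the pooled hippocampi of 2 mice. Ribosome-associated RNA reflects both the amount of a transcript and how much of it is on ribosomes, and in pooled tissue fewer cells of a type cannot be told apart from less RNA per cell.

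Proteins of the classical zinc finger type bind DNA through a row of small loops, each folded around a zinc ion that is held by paired cysteines and histidines, which gives the motif its name, C2H2. Many of them also carry a KRAB box, which recruits the co-repressor Trim28 and, through it, a histone methyltransferase and heterochromatin proteins. These KRAB zinc finger genes multiplied by local duplication, stand in clusters on a few chromosomes, and are best known for silencing transposable elements. Other members of the family are older and act in development, as partners of neuronal and fat cell transcription factors.

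Between 22074914 and 29549339 reads per library fell on a transcript, and 33691 to 46985 of them fell on the 57 members. The libraries differed in how many reads fell outside every annotated transcript, from 9.97% in SD replicate 4 to 27.64% in NSD replicate 2. NSD replicate 2 also stood apart in its reads without a single place in the genome (12.3%). Named markers of other cells also differed between libraries: of 9 inhibitory neuron markers 3 were named, in 5 rows, all lower in SD, and their summed level was 22.9 to 102.0 CPM in NSD and 15.5 to 47.1 CPM in SD. Of 7 septum and striatum markers, *Zic1*, *Zic2* and *Zic5* were named, all lower, with a sum of 5.17 to 29.5 CPM in NSD and 2.83 to 11.4 CPM in SD. Of 4 oligodendrocyte markers only *Mbp* was named (167 to 195 CPM in NSD and 178 to 229.8 CPM in SD, with a log2 fold change of 0.21), and none of 4 astrocyte and 4 microglia markers was. The 1 named row of an excitatory neuron marker, a *Camk2a* transcript, held 2.317 to 2.765 CPM in NSD and 1.48 to 2.315 CPM in SD, every SD library below NSD (log2 fold change -0.41), and 1 such row is too little to check the labelled cell type. The part of these differences in the values of the members was not tested.

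Of the 57 members, 37 (64.9%) were higher in SD and 20 were lower (a log2 fold change of SD over NSD above or below 0). Among all 29599 transcripts tested, 52% were higher, and among the 1913 named transcripts that are no member, which passed through the same list, 56.5% were. The median log2 fold change was 0.16 over the members and 0.0086 over all transcripts. No member passed an FDR of 0.05 in edgeR's two-sided quasi-likelihood test, in which 15 of 29599 transcripts did (0.0507%). At an unadjusted p below 0.05 stood 26 of the 57 members and 4.45% of all transcripts, and the choice of the members by p fixes the first of these counts. DESeq2 called 1 member, *Zfp804b*, where it called 0.449% of all transcripts. TMM factors, the likelihood ratio test and a filter of 1 count in 1 library called no member and 0.209%, 0.22% and 0.0938% of transcripts. A filter that keeps only better counted transcripts (edgeR's filterByExpr) brought 3 members past the threshold, *Zfp655*, *Zfp213* and *Zfp46*, where 0.993% of transcripts passed, and the same 3 did when every library had to hold 10 counts or more (1.97% of transcripts) and in the fit that named the rows (1.18%). In a fit to the 6 libraries whose numbers occur in both groups, the median of the members was 0.27.

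**Figure D1:**
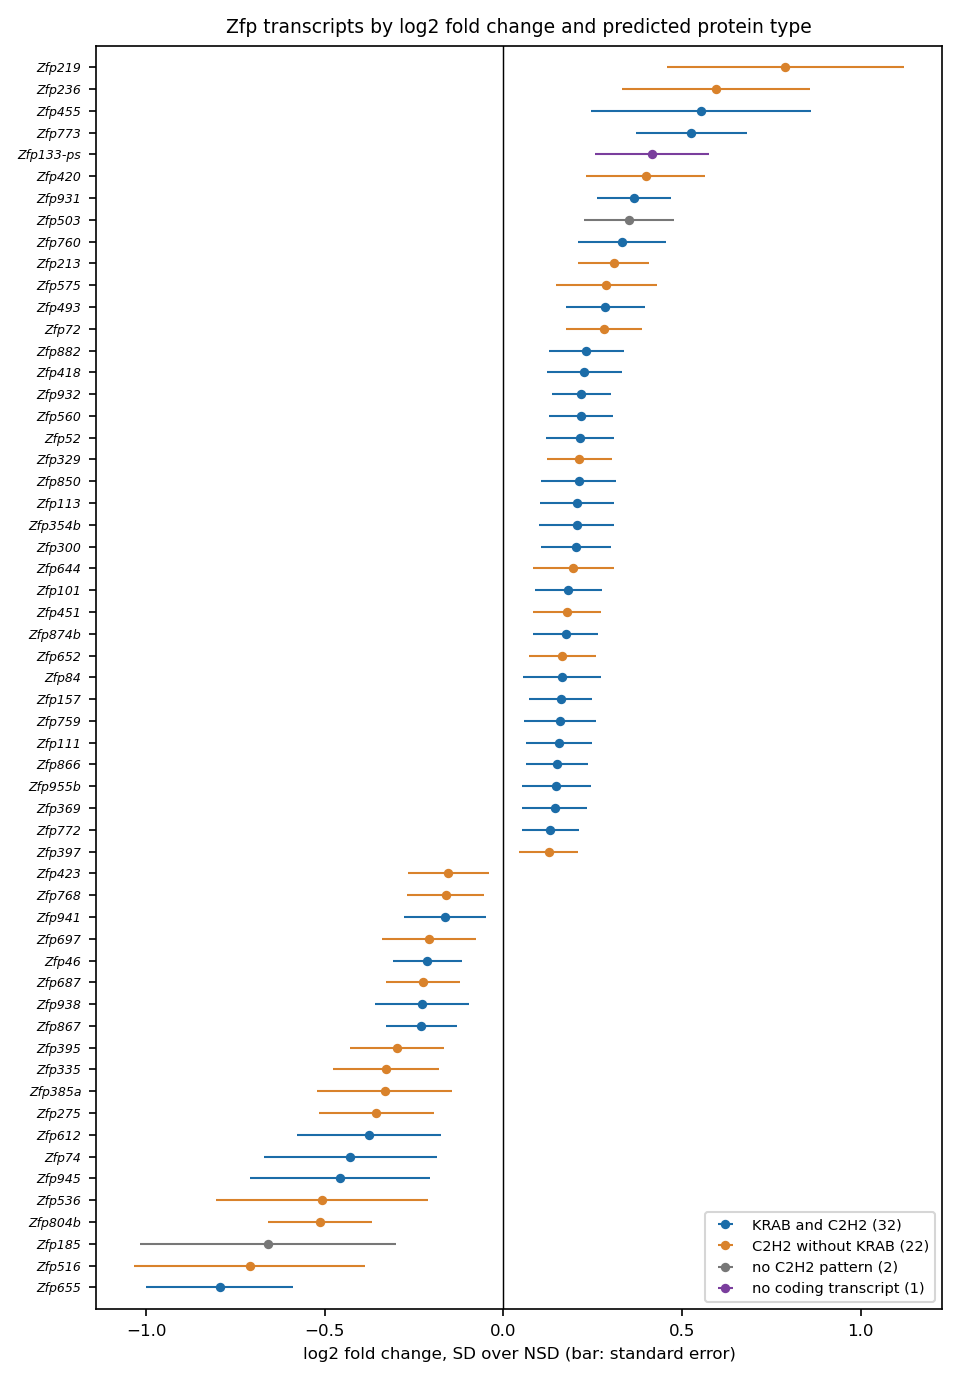
The log2 fold change of SD over NSD (horizontal axis) is shown for each of the 57 Zfp transcripts (rows, sorted), with bars for the standard error of the edgeR fit and colours for the predicted protein type. There are 37 points right of 0 and 20 left of it, and none close to 0, since the list behind the choice is ordered by p.

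The transcripts were then grouped by what their genes encode. A C2H2 finger pattern was found in the longest annotated coding transcript of 54 of the 57 genes, and 32 of these also had a KRAB pattern. The median number of fingers was 11, as over all annotated *Zfp* genes with at least 1 finger, and KRAB genes made up 57.1% of the coding members and 57.1% of the 394 coding *Zfp* genes. The patterns were read from the sequence and are no domain annotation, and the transcript they were read from need not be the one that was counted. A KRAB box that the pattern missed leaves its gene among those without, so the classes are approximate. *Zfp72*, placed without KRAB, has a promoter window whose last letters can be read as the start of a KRAB box.

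Among the 32 KRAB members, 24 (75.0%) were higher in SD and 8 lower, with a median log2 fold change of 0.17. Among the 22 members with fingers and no KRAB pattern, 11 were higher and 11 lower (median -0.013). The 2 groups also differed in how many reads they were counted with, a median of 22.5 CPM for the KRAB members and 7.63 CPM for those without (CPM is not corrected for length). Split by CPM, the gap between the classes narrowed. At 10 CPM or more, 21 of 24 KRAB members (87.5%, median 0.18) were higher. So were 7 of 10 without the KRAB pattern (70.0%, median 0.17), with *Zfp72* among the 7. Below 10 CPM it was 3 of 8 (37.5%) and 4 of 12 (33.3%).

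Direction and size both went with level. The choice by p fixes the second of these, since a poorly counted transcript needs a large change to stand high in the list. Of the 8 members below 1 CPM, 3 were higher and 5 lower, with a median absolute log2 fold change of 0.57 and a median standard error of 0.30. Of the 15 between 1 and 10 CPM, 6 were higher and 9 lower (median absolute change 0.35, median standard error 0.15). Of the 34 at 10 CPM or more, 28 were higher and 6 lower, and here the absolute change had a median of 0.20 and ran only from 0.13 to 0.37, with a median standard error of 0.099. The other named transcripts, taken from the same list, had a median absolute change of 0.639 below 1 CPM, 0.391 between 1 and 10 CPM and 0.185 above. The turn in direction with level was also present in other transcripts. At 10 CPM or more, 63.9% of all 6467 transcripts and 65% of the 1111 other named ones were higher, against 48.2% and 38.6% below 1 CPM. These shares by level were counted with the main scaling factors alone, and the median log2 fold change of the 6467 was only 0.031. Over all transcripts tested, 52% were higher with these factors, 44.6% after filterByExpr and 44.8% with at least 10 counts in every library. The filters also changed which transcripts were tested.

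**Figure D2:**
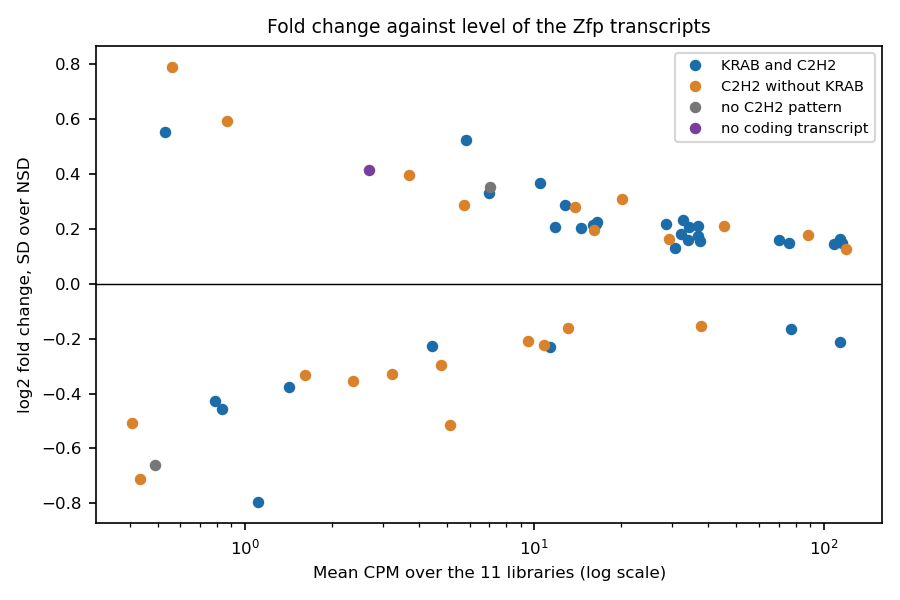
Each point is 1 of the 57 Zfp transcripts, placed by its mean CPM over the 11 libraries (log axis) and its log2 fold change of SD over NSD, and coloured by predicted protein type. Points at 10 CPM or more lie mostly above 0 (28 of 34) and within 0.37 of it, while those below 1 CPM reach 0.79 and -0.71.

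KRAB genes lie in clusters, and members no more than 500000 bases apart formed 9 groups. The signs of neighbours are a description: since 64.9% of all members and 75.0% of the KRAB members were higher, like signs are to be met without a link to position. On chromosome 13 (chr13:67121660-67792512, mm10) *Zfp759*, *Zfp455*, *Zfp874b* and *Zfp493* were all higher in SD, with log2 fold changes of 0.16, 0.55, 0.17 and 0.29. The largest, that of *Zfp455*, had a standard error of 0.31 at a mean of only 0.53 CPM, and its groups overlapped. On chromosome 7 (chr7:7127073-7209998) *Zfp773*, *Zfp418* and *Zfp772* were all higher as well (0.53, 0.23 and 0.13). All 7 are KRAB genes with 8 to 19 fingers. The pairs *Zfp52* and *Zfp760*, *Zfp955b* and *Zfp101*, *Zfp113* and *Zfp157*, and *Zfp111* and *Zfp575* were higher, *Zfp185* and *Zfp275* on the X chromosome were lower, and the groups of *Zfp84*, *Zfp420* and *Zfp74* and of *Zfp236* and *Zfp516* were split.

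The promoters of 6 genes in the chromosome 7 and 13 clusters are shown, all but *Zfp493*, because these neighbours had the same sign and share a short sequence. Each is a RefSeq window of 300 bases (GRCm38.p6), most of it before the start of transcription and the end just after it, written 5′ to 3′ on the strand of the gene. Capitals mark the letters ACTACA, or TGTAGT where they lie on the other strand, and TGACGTCA, the full cAMP response element to which CREB binds. The windows are chr7:7136706-7137005 (minus strand), chr7:7171103-7171402 (plus strand), chr7:7209949-7210248 (minus strand), chr13:67127978-67128277 (plus strand), chr13:67194256-67194555 (plus strand) and chr13:67484204-67484503 (minus strand). The promoter of *Zfp655*, the KRAB member that was lowest in SD relative to NSD (chr5:145231492-145231791 (plus strand)), is printed last and has none of these letters, though other lower members do.
Zfp773: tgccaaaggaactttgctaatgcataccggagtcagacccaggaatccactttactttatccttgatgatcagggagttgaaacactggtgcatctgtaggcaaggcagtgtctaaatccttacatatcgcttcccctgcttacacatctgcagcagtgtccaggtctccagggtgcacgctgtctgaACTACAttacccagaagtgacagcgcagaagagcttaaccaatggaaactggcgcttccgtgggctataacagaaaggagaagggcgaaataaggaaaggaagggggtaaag
Zfp418: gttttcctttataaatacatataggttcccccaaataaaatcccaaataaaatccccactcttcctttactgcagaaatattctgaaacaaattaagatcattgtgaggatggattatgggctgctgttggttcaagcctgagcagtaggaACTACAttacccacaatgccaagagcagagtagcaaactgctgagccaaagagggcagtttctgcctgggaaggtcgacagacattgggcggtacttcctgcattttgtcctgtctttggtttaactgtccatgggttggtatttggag
Zfp772: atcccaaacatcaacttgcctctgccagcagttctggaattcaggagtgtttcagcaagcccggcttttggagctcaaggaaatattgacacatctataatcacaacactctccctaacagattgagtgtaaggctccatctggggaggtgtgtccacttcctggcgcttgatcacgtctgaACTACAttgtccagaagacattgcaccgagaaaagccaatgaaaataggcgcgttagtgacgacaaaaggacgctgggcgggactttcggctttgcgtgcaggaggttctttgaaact
Zfp759: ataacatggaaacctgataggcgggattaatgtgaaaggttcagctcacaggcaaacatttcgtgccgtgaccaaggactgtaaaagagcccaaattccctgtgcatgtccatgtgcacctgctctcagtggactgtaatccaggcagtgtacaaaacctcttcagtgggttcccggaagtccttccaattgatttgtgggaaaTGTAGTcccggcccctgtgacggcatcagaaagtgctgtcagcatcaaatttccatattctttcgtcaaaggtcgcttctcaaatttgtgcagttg
Zfp455: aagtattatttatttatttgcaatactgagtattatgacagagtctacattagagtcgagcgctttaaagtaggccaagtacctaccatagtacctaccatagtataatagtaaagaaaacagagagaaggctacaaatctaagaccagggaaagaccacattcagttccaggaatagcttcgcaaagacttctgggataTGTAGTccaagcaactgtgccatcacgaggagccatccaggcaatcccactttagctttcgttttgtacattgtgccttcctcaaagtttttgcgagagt
Zfp874b: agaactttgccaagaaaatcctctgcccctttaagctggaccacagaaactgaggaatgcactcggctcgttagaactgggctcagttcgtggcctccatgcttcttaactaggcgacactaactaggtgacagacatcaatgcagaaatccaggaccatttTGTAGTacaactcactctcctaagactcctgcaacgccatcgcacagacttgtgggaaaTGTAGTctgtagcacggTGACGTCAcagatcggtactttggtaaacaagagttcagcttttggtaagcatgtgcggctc
Zfp655: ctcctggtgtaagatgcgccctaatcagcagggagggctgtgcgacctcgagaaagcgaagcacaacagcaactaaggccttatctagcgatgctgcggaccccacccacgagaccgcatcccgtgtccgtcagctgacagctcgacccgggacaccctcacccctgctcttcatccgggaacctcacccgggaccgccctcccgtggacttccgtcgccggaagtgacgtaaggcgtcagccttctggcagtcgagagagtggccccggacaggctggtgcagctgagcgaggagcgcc

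All 6 clustered genes with a promoter shown carried ACTACA or its complement, the opening of the longer sequence to which the zinc finger protein Zfp143 is known to bind. In 5 of the 6, all but *Zfp772*, a longer form was present, in which ACTACA is followed by any 3 bases and then CCCA (both strands were searched, and the longer form contains the shorter). The letters do not mark neighbours of like sign. All 3 genes of the split group on chromosome 7, *Zfp84*, *Zfp420* and *Zfp74*, had the longer form, and so did *Zfp111* of a pair that was higher. Of these, *Zfp74*, a KRAB gene, was lower in SD, at a mean of only 0.79 CPM (log2 fold change -0.43, standard error 0.24). The lower members *Zfp697* and *Zfp804b* had ACTACA or its complement. It was absent from the windows of *Zfp52* and *Zfp760*, *Zfp955b* and *Zfp101*, *Zfp113* and *Zfp157*, and *Zfp185* and *Zfp275*. The letters were picked after the promoters had been read. Promoters were found for 48 of the 57 members, 58 windows in all. ACTACA was in 19 of the 58 (32.8%), in 21.4% of the promoters of other *Zfp* genes and in 10.3% of all 32851 promoters. The longer form was in 12 (20.7%), 15.2% and 1.69%. Among KRAB genes alone, ACTACA was in 36.4% of the promoters of members and 28.9% of those of other *Zfp* genes. By direction, 15 of the 31 genes that were higher and 3 of the 17 that were lower had ACTACA, and the 15 include the 6 from which the letters were picked, so nothing is read from this count. A match is no evidence of binding.

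The members that set the range were taken by a fixed rule: at a mean of at least 1 CPM, the 4 with the largest and the 4 with the smallest log2 fold change, all whose groups did not overlap, and the 4 with the most CPM. CPM is a transcript's count relative to the size of its library, with upper-quartile factors. It is not corrected for length, so CPM tells how well a transcript was counted and not which gene is expressed more. Errors on CPM are standard deviations over the libraries (n = 5 NSD and n = 6 SD), and values are in the order of the replicates given above. Errors on log2 fold changes are standard errors, here and below, taken from the change and the F statistic of the edgeR test. Positions are on mm10, from GENCODE vM21.

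In 3 members the SD and NSD libraries did not overlap, as in 0.821% of all transcripts. Of all transcripts, 0.459% had every SD library above and 0.361% every SD library below. The KRAB gene *Zfp931* (transcript uc012clr.1, chr2:178067695-178078476, minus strand) had 9.27, 9.55, 9.58, 7.58 and 9.12 CPM in the NSD libraries. In the SD libraries it had 10.9, 11.5, 12, 12.4, 12.4 and 10.6 CPM. Every SD library was above every NSD library, the mean was 9.02 ± 0.827 CPM in NSD and 11.6 ± 0.762 CPM in SD, and the log2 fold change was 0.37 ± 0.10 (standard error). The lowest NSD value, 7.58 CPM in replicate 5, stood apart from the other 4.

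*Zfp560* (transcript uc009oij.1, chr9:20345136-20385177, minus strand), a KRAB gene with 15 fingers, had 16.4, 13.7, 14.2, 15.2 and 15.4 CPM in NSD. Its SD libraries held 16.8, 18.1, 17.4, 19.0, 16.5 and 16.8 CPM. The gap between the groups was narrow, with the highest NSD library at 16.4 and the lowest SD library at 16.5, and the log2 fold change was 0.22 ± 0.09.

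*Zfp655* (transcript uc009amp.1, chr5:145231715-145247302, plus strand), a KRAB gene with 6 fingers, was the one whose SD libraries all lay below. It had 1.49, 1.69, 1.32, 1.38 and 1.33 CPM in NSD, and in SD 0.679, 0.803, 0.887, 0.924, 1.004 and 0.683 CPM. Its log2 fold change of -0.79 ± 0.21 was the lowest of the 57, at a level of about 1 CPM.

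*Zfp773* (transcript uc009fcj.2, chr7:7127073-7136755, minus strand) had the largest log2 fold change of the members at 1 CPM or more, 0.53 ± 0.15. Its NSD libraries held 3.35, 4.37, 4.23, 5.19 and 6.37 CPM and its SD libraries 5.61, 6.81, 6.48, 7.75, 7.46 and 6.54 CPM. Only NSD replicate B reached into the SD range. The 2 neighbours of this cluster had smaller log2 fold changes (given above): *Zfp418* and *Zfp772* had means of 15.0 ± 1.70 and 29.1 ± 1.65 CPM in NSD and of 17.6 ± 1.88 and 31.9 ± 2.16 CPM in SD.

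*Zfp133-ps* (transcript uc008mrb.2, chr2:144459280-144500267, plus strand), annotated as a transcribed pseudogene and the only member without a coding transcript, had 2.23, 2.81, 2.02, 2.01 and 2.29 CPM in NSD. In SD it had 2.72, 3.21, 3.51, 2.69, 3.08 and 2.98 CPM. The ranges overlapped through NSD replicate 3 (0.42 ± 0.16).

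*Zfp420* (transcript uc009gcj.2, chr7:29859979-29877292, plus strand), with 19 fingers, had 3.19, 3.20, 2.95, 3.02 and 3.33 CPM in NSD and 2.96, 5.20, 4.17, 5.10, 4.09 and 3.34 CPM in SD. Its NSD libraries were close together, while its SD libraries ran from 2.96 CPM in replicate 1, inside the NSD range, to 5.20 CPM in replicate 2, and the log2 fold change was 0.40 ± 0.17.

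Of the members at 1 CPM or more that were lower, *Zfp804b* (transcript uc012dry.1, chr5:6769010-7344756, minus strand) had the lowest log2 fold change after *Zfp655*. It encodes a large protein with a single finger pattern and is the paralogue of *Zfp804a*, whose human counterpart is a candidate gene for schizophrenia. It had 6.29, 5.14, 5.94, 6.79 and 6.41 CPM in NSD and 4.21, 3.55, 3.59, 3.90, 5.20 and 5.21 CPM in SD. SD replicates 6 and D stood just above NSD replicate 3, and the other 4 SD libraries lay below all of NSD (-0.51 ± 0.14).

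*Zfp612* (transcript uc009njw.2, chr8:110079746-110092741, plus strand), a KRAB gene, had 1.90, 1.69, 1.20, 1.51 and 1.83 CPM in NSD and 1.22, 0.930, 1.39, 1.45, 1.15 and 1.37 CPM in SD (-0.38 ± 0.20). The X-linked *Zfp275* (transcript uc009tlp.2, chrX:73342621-73359080, plus strand) had 2.73, 2.46, 2.25, 3.23 and 2.79 CPM in NSD and 2.21, 2.07, 1.89, 2.17, 2.33 and 1.94 CPM in SD (-0.36 ± 0.16). In both, the groups overlapped.

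*Zfp213* (transcript uc008asg.2, chr17:23556767-23564238, minus strand), 1 of the 3 members past the threshold under other filters, had 16.0, 18.5, 17.7, 19.3 and 17.3 CPM in NSD and 17.7, 24.4, 20.1, 23.7, 23.6 and 22.4 CPM in SD (0.31 ± 0.10). The ranges overlapped, with SD replicate 1 at the level of NSD, and its exons overlap *Gm26695* on the other strand.

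**Figure D3:**
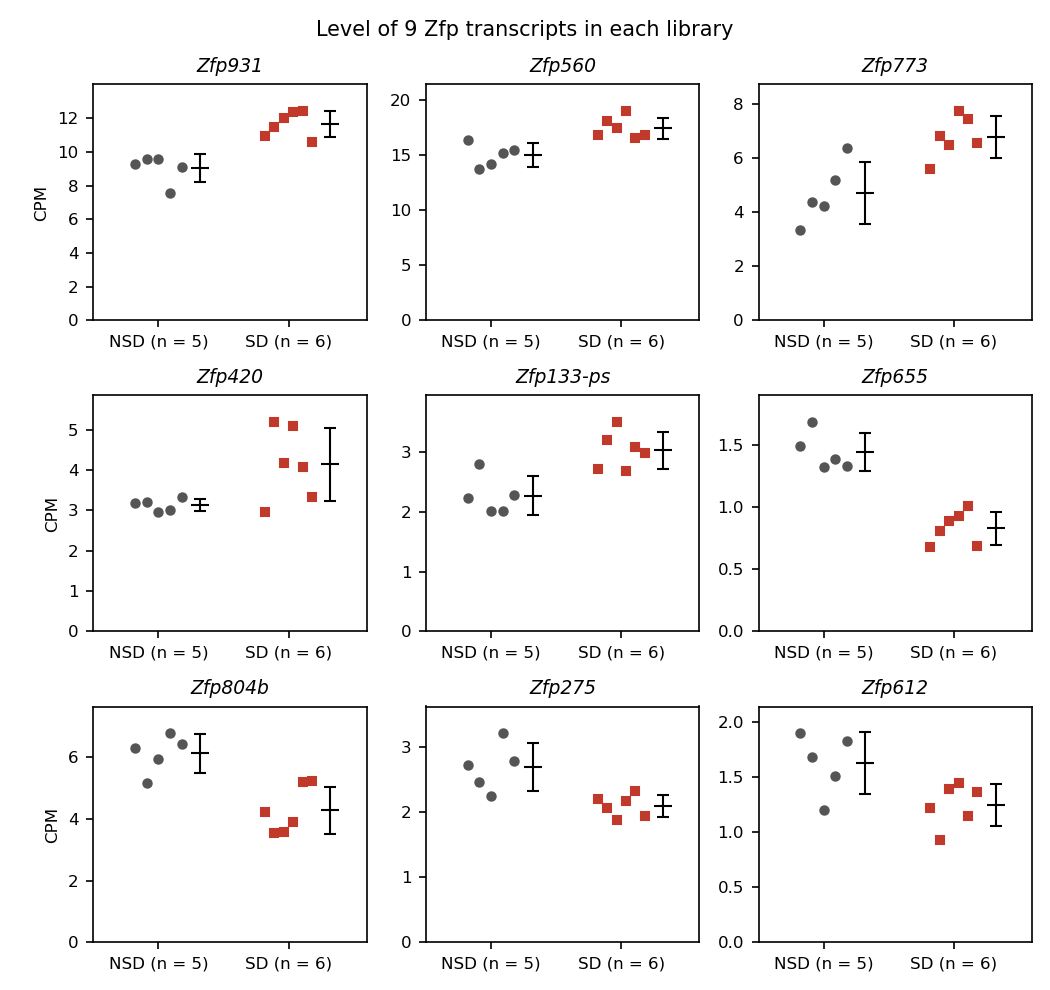
CPM of 9 Zfp transcripts in every library is shown, with circles for NSD (n = 5), squares for SD (n = 6), and bars for the mean and standard deviation of each group; every vertical axis starts at 0. The groups are apart in Zfp931, Zfp560 and Zfp655 and overlap in the other panels.

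The 4 members with the most CPM had small log2 fold changes. *Zfp397* (transcript uc008egh.1, chr18:23954692-23964673, plus strand) had 108, 117, 109, 117 and 120.1 CPM in NSD and 109.5, 134, 119, 136, 127 and 122 CPM in SD (0.13 ± 0.08). *Zfp955b* (transcript uc008byh.2, chr17:33289544-33307241, plus strand) had 101, 121, 91.3, 118 and 115 CPM in NSD and 102, 132, 115, 134, 122 and 120.4 CPM in SD (0.15 ± 0.10). In both, SD replicate 1 lay among the low values, SD replicates 2 and 4 were highest, and the ranges overlapped. An exon of *Zfp955b* overlaps *Zfp422-ps* on the other strand, where reads on both are left out of the count if strand was ignored. The strand setting of the counting is not given in the sources used here.

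*Zfp84* (transcript uc009gbz.1, chr7:29768552-29779821, plus strand) had 97.5, 117, 92.1, 118 and 112 CPM in NSD and 88.9, 135, 110.5, 132, 127 and 127 CPM in SD (0.16 ± 0.11). Its lowest library of all was SD replicate 1, although the mean was higher in SD. *Zfp46* (transcript uc008vhw.1, chr4:136284683-136293942, plus strand) went the other way, with 116, 128, 111, 141 and 119 CPM in NSD and 86.9, 112, 98.9, 121, 114 and 103 CPM in SD (-0.21 ± 0.10). Its lowest value was again in SD replicate 1 and its highest in NSD replicate 5.

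With these scaling factors these levels went with a property of the libraries, the share of reads outside transcripts (by r in 3 of the 4 and by rho in all 4), and with other factors no relation passed the test. Over the 11 libraries the log2 CPM of *Zfp397* fell as the share of reads outside transcripts rose, with Pearson's r = -0.76 (permutation test, two-sided, p = 0.00166, adjusted over the 4 relations 0.00664) and Spearman's rho = -0.67 (permutation p = 0.027, adjusted 0.0334). For *Zfp955b* r was -0.76 (permutation p = 0.0107, adjusted 0.0143) and rho -0.85 (permutation p = 0.00144, adjusted 0.00576). For *Zfp84* r was -0.79 (permutation p = 0.00544, adjusted 0.0109) and rho -0.80 (permutation p = 0.00442, adjusted 0.00884). For *Zfp46* r was -0.47 (permutation p = 0.167, adjusted 0.167) and rho -0.65 (permutation p = 0.0334, adjusted 0.0334). Without NSD replicate 2 and SD replicate 1, the libraries farthest from the median share, r was -0.65 for *Zfp397*, -0.79 for *Zfp955b*, -0.78 for *Zfp84* and -0.65 for *Zfp46*, and rho was -0.42, -0.78, -0.68 and -0.77, so that the rank correlation of *Zfp397* weakened without them. Within the SD libraries r ran from -0.99 to -0.96 over the 4 transcripts, and within NSD from -0.80 to -0.64, with these factors alone. With upper-quartile factors taken from transcripts with at least 10 counts in every library, r over the 11 libraries was 0.20 for *Zfp397* (permutation p = 0.598, adjusted 0.797), -0.35 for *Zfp955b* (permutation p = 0.303, adjusted 0.606), -0.61 for *Zfp84* (permutation p = 0.0505, adjusted 0.202) and 0.083 for *Zfp46* (permutation p = 0.801, adjusted 0.801), and rho was 0.25, -0.29, -0.51 and -0.14 (adjusted permutation p from 0.458 to 0.695). In the order *Zfp397*, *Zfp955b*, *Zfp84* and *Zfp46*, r within the SD libraries was then 0.57, -0.27, -0.84 and -0.69, and within NSD 0.47, -0.29, -0.49 and -0.045.

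**Figure D4:**
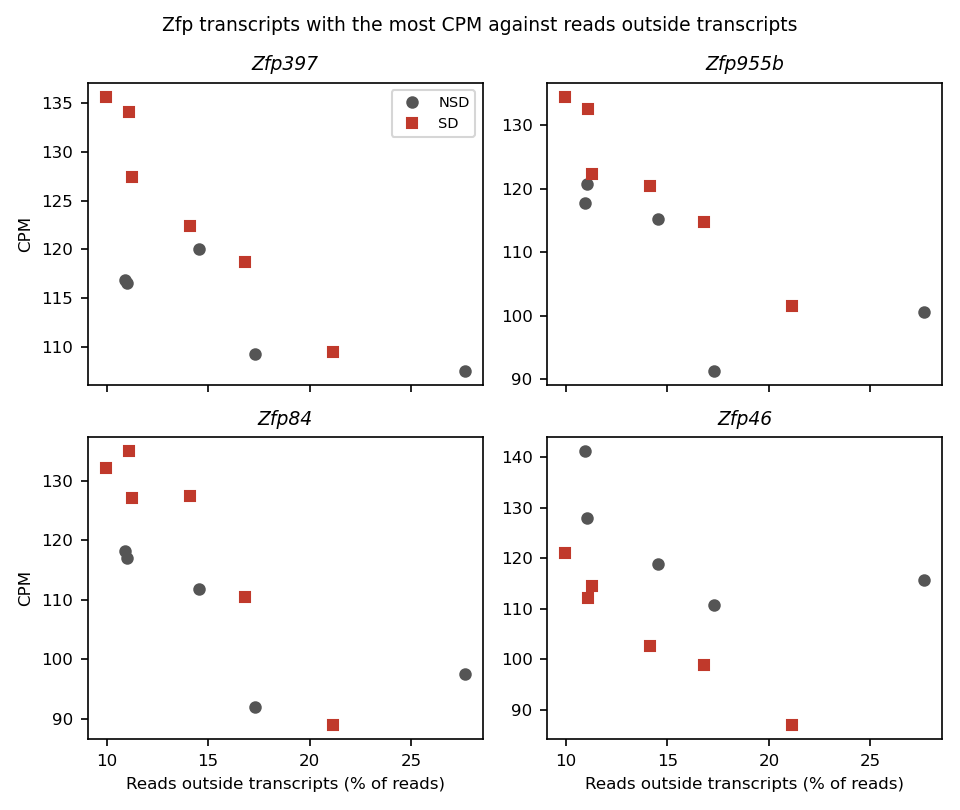
CPM of the 4 Zfp transcripts with the most CPM (vertical axes, which do not start at 0) is set against the percentage of a library's reads that fell outside transcripts, with circles for NSD and squares for SD. In each panel the SD libraries fall as the share rises, and in Zfp46 each NSD library lies above the SD library with the nearest share. CPM here uses upper-quartile factors over all transcripts tested, and with factors from better counted transcripts no relation over the 11 libraries passed the permutation test.

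The relation was not particular to *Zfp* transcripts. Measured on deviations from the group means, 27 of the 34 members at 10 CPM or more (79.4%, median r -0.75) had a correlation with that share below -0.5, and so did 85.6% of all 6467 transcripts at that level (median r -0.77). With factors from transcripts with at least 10 counts in every library, these shares were 11.8% and 37%, the median r was -0.067 over the members and -0.36 over all, and 6 of the 34 members were above 0.5, where none was before. Of all 6467 transcripts 727 were above 0.5, and 254 were before. With upper-quartile factors over all transcripts tested, members at 10 CPM or more correlated with each other with a median r of 0.73, and all transcripts at that level with 0.77. This was not repeated with the other factors. The points share their libraries and scaling factors, so these values describe the libraries. When the share was added to the fit, the median log2 fold change of the members was 0.11, and 37 were still higher.

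**Figure D5:**
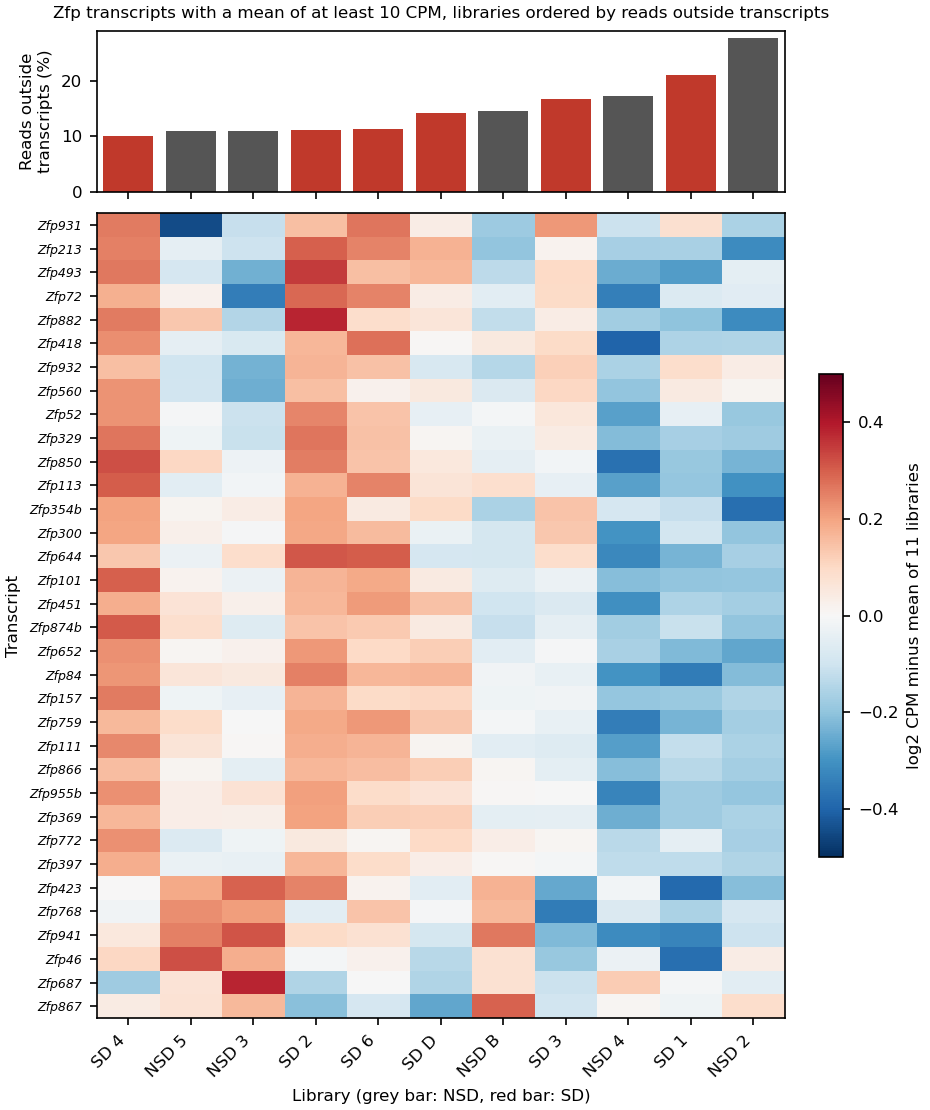
The 34 Zfp transcripts with a mean of at least 10 CPM (rows, sorted by fold change) are shown in every library (columns, upper-quartile factors over all transcripts tested, ordered by the share of reads outside transcripts in the bars above); colour is the log2 CPM minus the transcript's mean over the 11 libraries. SD replicates 4, 2 and 6, with few reads outside transcripts, are high in most rows, and NSD replicates 4 and 2 and SD replicate 1 are low. NSD replicates 5 and 3, with shares as small (10.93% and 11.02%), are high in some rows and low in others. The 6 rows at the bottom are lower in SD.

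The members with known roles outside transposon control were found in both directions, none past the test. Among those higher were *Zfp451* (0.18 ± 0.10), a SUMO ligase, *Zfp644* (0.20 ± 0.11), a partner of the histone methyltransferases G9a and GLP, and *Zfp503* (0.35 ± 0.13), a regulator of striatal development that has no classical C2H2 pattern. *Zfp369* (0.14 ± 0.09) is related to a protein that interacts with the neurotrophin receptor. Among those lower were *Zfp423* (-0.15 ± 0.11), a partner of Ebf factors in the development of cerebellum and fat, *Zfp687* (-0.22 ± 0.10), part of a chromatin complex with Zmynd8, and *Zfp335* (-0.33 ± 0.15), whose loss causes microcephaly. *Zfp395* (-0.30 ± 0.13) binds the promoter of the huntingtin gene, *Zfp536* (-0.51 ± 0.30) restrains neuronal differentiation, and *Zfp516* (-0.71 ± 0.32) activates genes of brown fat. *Zfp185* (-0.66 ± 0.36) encodes an actin-binding LIM protein in spite of its name. The last of these, *Zfp536*, *Zfp516* and *Zfp185*, had means of only 0.41, 0.44 and 0.49 CPM.

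Members not yet described were, among those higher, *Zfp219*, *Zfp236*, *Zfp760*, *Zfp575*, *Zfp72*, *Zfp882*, *Zfp932*, *Zfp52*, *Zfp329*, *Zfp850*, *Zfp113*, *Zfp354b*, *Zfp300*, *Zfp101*, *Zfp652*, *Zfp157*, *Zfp111* and *Zfp866*, with log2 fold changes from 0.15 to 0.79. Those lower were *Zfp768*, *Zfp941*, *Zfp697*, *Zfp938*, *Zfp867*, *Zfp385a*, *Zfp74* and *Zfp945*, from -0.46 to -0.16. The largest of these changes belong to transcripts with under 1 CPM, such as *Zfp219* with 0.399 ± 0.131 CPM in NSD and 0.692 ± 0.247 CPM in SD. In 16 members an exon overlaps that of another gene, on the other strand in 13 and on the same strand in 5 (*Zfp652* and *Zfp866* count under both), so that reads on the overlap may be missing from their counts.

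Few genes that work with KRAB proteins could be named. Of 15 genes of the KRAB co-repressor machinery 3 were, all higher and none past the test in edgeR: *Mphosph8* (log2 fold change 0.26), a reader of methylated histone in the HUSH silencing complex, *Morc2a* (0.18), an ATPase that acts with HUSH, and *Cbx1* (0.24), a heterochromatin protein. Their sum was 39.5 to 49.4 CPM in NSD and 43.4 to 56.5 CPM in SD. All 3 had a mean above 10 CPM, where 65% of the 1111 named transcripts that are no member were higher. *Trim28* and *Setdb1*, the core of the pathway, were not among the named rows. Of the other zinc finger families, *Zbtb40* (0.46), *Klf15* (0.68) and *Zhx2* (0.27) were higher and *Zbtb46* (-0.37), *Zkscan16* (-0.14), *Klf11* (-0.31) and the 3 *Zic* genes (-1.88 to -1.57) lower, none past an FDR of 0.05 in edgeR. No *Zscan*, *Egr*, *Zeb*, *Zmiz* or *Zmym* gene was named. Outside the *Zfp* symbols, 5 named transcripts came from KRAB zinc finger genes, of which 3 were higher.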

How the data were processed

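TRAP-Seq libraries (ribosome-associated RNA, 5 NSD and 6 SD) were analysed from 1 table of raw counts. The authors trimmed the reads with Trimmomatic 0.36, aligned them to mm10 with STAR 2.7.5 and counted them on UCSC transcripts with HTSeq-count (intersection-nonempty), and deposited the counts without normalization. Reads on more than 1 transcript went to a tally, so a count covers only the unshared part of a transcript. The 5 tallies were left out here, which leaves 22.82% to 31.94% of the reads of a library. Rows were named by log CPM from an edgeR fit with tallies, filterByExpr, TMM factors and the likelihood ratio test (19141 rows). The study's list also holds fold changes and p-values, which were not used.

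The 29599 transcripts with a count of 1 or more in 5 libraries or more were tested with edgeR 4.0.16 in R 4.3.3 (upper-quartile factors, two-sided quasi-likelihood test, Benjamini-Hochberg adjustment, FDR 0.05). All libraries of a group were treated as replicates by their labels. Between 22074914 and 29549339 counts per library leave small counting error at 10 CPM and more. Log2 CPM used a prior count of 2, and permutation tests 100000 resamples. Positions, finger patterns (C, 2 to 4 residues, C, 12 residues, H, 3 to 5 residues, H) and KRAB patterns come from GENCODE vM21, promoters from RefSeq. A simulation with the same group sizes tested 29198 transcripts and shifted 200 by a log2 fold of 0.8, more than any member changed. It gave 148 calls by quasi-likelihood (143 of shifted transcripts) and 157 by DESeq2 (140 of shifted ones). Its counts were drawn independently with 1 dispersion for all, and only transcripts with a mean of at least 10 counts were shifted. It lacks the shared differences between the real libraries, so it does not show how the tests behave on them. Alternatives were TMM, the likelihood ratio test, DESeq2 1.42.0, other filters, the naming fit, the label series, a replicate block, libraries left out in turn and, added after seeing the data, the share of reads outside transcripts as a covariate and scaling factors from transcripts with at least 10 counts in every library. The members, lists and rules were chosen with earlier results of these data known. Values in every library are given for members past FDR 0.05, the 4 largest and 4 smallest log2 fold changes at a mean of at least 1 CPM, members without overlap, and the 4 with most CPM. *Zfp213* and the members with known roles were chosen after their values were seen. Python 3.11.15 with matplotlib 3.10.9 made the plots.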

Additional observations from a re-analysis of the deposited data

Results flagged for a closer look

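Among 36 sets of library values, each of 5 or 6 libraries, 4 held a value far from the others of its group by Dixon's criterion, which chance alone gives in about 1 of 20 sets. *Zfp931* had 7.58 CPM in NSD replicate 5, its lowest NSD value, and its groups are also apart in that library's absence, since all other NSD values lie below the SD range. NSD replicate 2 had the lowest share of reads counted on transcripts (22.82%), the lowest share of ambiguous reads (37.25%) and the highest share of reads without a single place in the genome (12.3%) of the NSD libraries. Without NSD replicate 2, 37 of the 57 members were still higher in SD, and their median log2 fold change was 0.136.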

How the results depend on the processing

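No member passed an FDR of 0.05 with TMM factors, the likelihood ratio test, a filter of 1 count in 1 library, the label series or the share of reads outside transcripts as a covariate, or any library left out. DESeq2 called 1 member, and filterByExpr, at least 10 counts in every library and the naming fit called 3 each. Over all transcripts the main count of 15 became 62 with TMM factors, 65 with the likelihood ratio test, 133 with DESeq2, 191 with filterByExpr, 311 with at least 10 counts in every library, 33 with 1 count in 1 library, 226 in the naming fit, 8 with the label series, 167 with the covariate, and 1 (without NSD replicate B) to 69 (without SD replicate 1) with a library left out. The cause was not tested, though the filters also changed the number tested.

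The number of members higher in SD was 37 to 38 over the settings that tested all 57, and their median log2 fold change 0.112 to 0.267, beside -0.0195 to 0.0182 over all transcripts in the same settings. Deviations of same-numbered libraries correlated at -0.26, -0.29 and -0.36, and those of other pairs from -0.427 to 0.417. These deviations used the main scaling factors, with which most transcripts at 10 CPM or more went with the share of reads outside transcripts. They cannot tell whether shared replicate numbers pair the libraries, since that shared difference could hide a pairing. With the replicate block over 6 libraries 6 transcripts were called, against 3 in these libraries without the block, members called were 0 in both, and of the members only *Zfp941* reversed: the log2 fold change of Zfp941 was -0.16 over all libraries, -0.00865 in these 6 without the block and 0.00997 with it. In these 6 without the block, 6 of the members with values in every library moved by over 1.5 times: the log2 fold change of Zfp46 was -0.0947, the log2 fold change of Zfp397 was 0.219, the log2 fold change of Zfp420 was 0.631, the log2 fold change of Zfp773 was 0.815, the log2 fold change of Zfp84 was 0.300 and the log2 fold change of Zfp955b was 0.286. With the covariate that of Zfp84 was 0.0944 and that of Zfp955b 0.0986, and without NSD replicate 4 that of Zfp955b was 0.0906. At under 1 CPM depth limits the precision, with a median standard error of 0.30 on the log2 scale.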

Other observations

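Other short sequences were counted in the promoter windows of the members. None of the 58 held the E-box CACGTG, to which the clock factors Clock and Bmal1 bind, against 7.14% of the promoters of other *Zfp* genes and 7.15% of all. CCAAT or its complement was in 55.2%, against 44.9% and 37.4%. The cAMP response element TGACGTCA was in 3 windows, those of *Zfp335*, *Zfp72* and *Zfp874b* (5.17%, against 3.57% and 1.79%), and TATAAA or its complement in 15.5%, against 5.36% and 13.6%. The median number of CpG was 10.5 in the members, 15 in other *Zfp* genes and 7 in all promoters. Both strands were searched, and no test was made.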
